A study of Mus musculus with 9 samples.

Results

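Heat shock proteins, their DnaJ co-chaperones and the heat shock transcription factors were followed in mouse intestinal organoids and tumoroids by RNA-sequencing. Members were the genes of the deposited table whose symbol belongs to the Hsp, Dnaja, Dnajb, Dnajc or Hsf series, without pseudogenes. They also had to reach a TPM (an expression level corrected for gene length and library size) of at least 1 in any library. This gave 64 members out of 75 genes with such a symbol, 16208 genes tested and 50600 genes in the table. The 11 genes left out were Dnajb8, Dnajb13, Dnajc6, Hsf3, Hsf5, Hspa1l, Hspa12a, Hspa12b, Hspb3, Hspb7 and Hspb9. The members nearest to the minimum were Dnajb3, Hsf4 and Hspb2, with highest TPM of 1.15, 2.6 and 2.66, and the gene nearest below it was Hsf3, with 0.30.

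The 9 libraries formed 3 groups of 3 numbered replicates. Wild-type (WT) organoids, cultures grown in a gel of small intestinal epithelium from C57BL/6 mice, were kept for 24 hr after passage in a mix of organoid medium and conditioned medium (cM), which came either from WT organoids (WT-cM) or from tumoroids (T-cM). Tumoroids were organoids from intestinal tumours of Apc1638N/+ mice, which carry a mutant allele of the Wnt pathway inhibitor Apc, on a strain labelled MIX, and were untreated. Every group came from 3 mice, and the labels do not say whether both organoid libraries of a number share a mouse. WT organoids were generally derived from mice of 2 to 5 months of age and tumoroids from mice of more than 6 months. The labels list R-spondin1 in the medium of every library, whereas the methods of the study grow tumoroids without it. Genotype, strain, age, conditioned medium and possibly R-spondin1 therefore cannot be told apart between tumoroids and organoids.

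The titles and the treatment fields of the 6 organoid libraries name opposite media. Here the titles name the groups, as WT-cM-titled organoids and T-cM-titled organoids. Should the treatment field hold the true label, every direction between these groups is turned round. The comparison of tumoroids with all organoids does not depend on this label.

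Heat shock proteins are chaperones, which bind unfolded or newly made proteins and help them to fold. HSP70 proteins bind and release client proteins in a cycle driven by ATP. DnaJ proteins bring clients to HSP70 and start the cycle, and nucleotide exchange factors, the HSP110 proteins among them, end it. HSP90 acts later on signalling proteins, small heat shock proteins hold unfolded proteins without ATP, and the endoplasmic reticulum (ER) and mitochondria have chaperones of their own. Heat shock factors, above all HSF1, switch on the inducible members under stress by binding heat shock elements in promoters. In the intestine, secretory cells depend on the chaperones of the ER.

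Libraries held between 16541635 and 25170966 reads counted on genes. Levels are given as CPM, read counts divided by the TMM-normalised library size, on which 3 reads were worth between 0.103 and 0.204 CPM depending on the library. These limits cover counting error only, as PCR reads are not independent molecules. Spearman's correlation over the tested genes was between 0.978 and 0.994 among organoid libraries, between 0.947 and 0.965 among tumoroids and between 0.835 and 0.897 across the 2 kinds of culture. The 8 epithelial markers summed to between 10527 and 15020 TPM in organoids and between 11970 and 13753 TPM in tumoroids. In bulk RNA, fewer cells of a type and less RNA per cell cannot be told apart.

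The members together made up between 6277 and 9843 TPM in organoids and between 11100 and 12077 TPM in tumoroids, so that the 2 ranges did not overlap. The log2 ratio of the mean sums was 0.56, beside a median of 0.52 over all genes tested on the log2(TPM + 1) scale. Within organoids, replicate 1 was highest under both media, with 9467 TPM in the T-cM-titled and 9843 TPM in the WT-cM-titled library, whereas the other 4 libraries lay at or below 7585 TPM. Between 66.0% and 72.4% of the members' TPM came from 6 genes in every library. These were Hsp90ab1, the constitutive cytosolic HSP90, Hspa8, the constitutive cytosolic HSP70, Hspd1, Hspa9, Hspa5 and Hsp90b1. Per length, Hsp90ab1 had the highest mean level, with 1360 to 2268 TPM in organoids and 3553 to 3854 TPM in tumoroids. Hspa8 followed, with 1103 to 1609 TPM in organoids and 1599 to 2077 TPM in tumoroids. At the other end, Dnajb3, Dnajb7, Hspb1, Hspb2 and Hspb8 were below 1 CPM in every organoid library.

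The first comparison asked how tumoroids differ from WT organoids. All 9 libraries entered an edgeR quasi-likelihood fit, and tumoroids were contrasted with the mean of both organoid groups. The small heat shock protein genes Hspb1 and Hspb8, the inducible HSP70 gene Hspa1b and the testis-enriched HSP70 gene Hspa2 were higher in tumoroids. The ER members Hspa5, Hsp90b1, Dnajb11, Dnajc3 and Dnajb9 were lower. Of the 64 members, 18 passed as higher (28.1%) and 13 as lower (20.3%), where passing stands for an adjusted p under 0.05. Over all genes tested, 29.6% were higher and 20.8% lower, so that 48.4% of members and 50.4% of all genes passed. With an absolute log2 fold change above 1 as well, 12 members were higher (18.8%, against 21% of all genes) and 3 lower (4.69%, against 12.1%), or 23.4% of members against 33.1% of all genes. The tumoroids and the organoid libraries did not overlap for 12 higher and 11 lower members (18.8% and 17.2%, against 25.6% and 20.2% of all genes), which are 35.9% of members against 45.8% of all genes. The median log2 fold change was 0.10 for the members and 0.16 for all genes tested, so that a member with a value of 0.16 moved like the median gene. The members counted as higher include Hspb1, Hspb2 and Hspb8, which reached the TPM minimum in tumoroids only and so had to differ, and no p is given for these 3. Counts of members near these background shares are no result about the family, and the values below are those of its single genes. Same-numbered organoid libraries deviated together, and this fit counts them as separate samples. With the organoid libraries of a number summed, 12 members were higher (18.8%, against 21.6% of all genes) and 10 lower (15.6%, against 17.2%), and Hsp90ab1, Hspa4l, Hsph1, Hspb11, Dnajb5, Dnajb6, Hsp90b1, Hspa13 and Dnajc11 no longer passed (adjusted p = 0.051 to 0.15). In the dot plot of all 64 members by role, Hspb1, Hspb8 and Hspb2 stand furthest to the right, and the ER gene Dnajb11, the endosomal gene Dnajc13 and the ER gene Dnajc3 furthest to the left among those that passed.

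**Figure D1:**
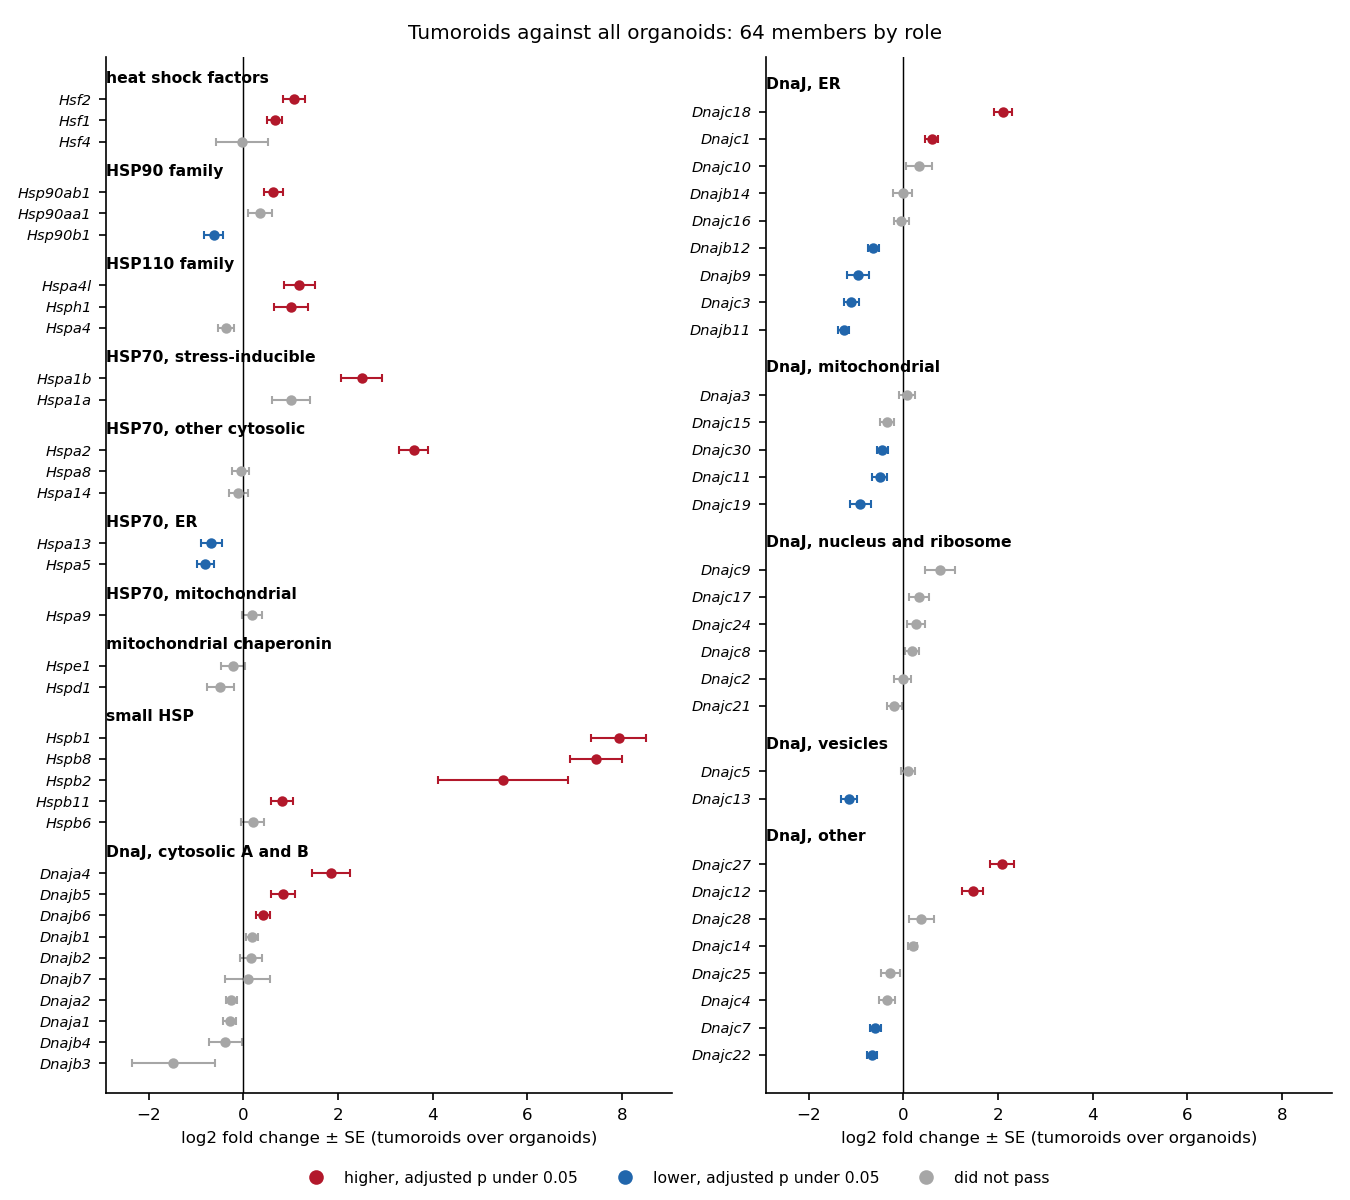
Log2 fold change of tumoroids over the mean of both organoid groups for the 64 members, grouped by role, with its standard error from the edgeR fit over 9 libraries. Of the points, 18 in red passed as higher, 13 in blue passed as lower and the grey ones did not pass. The value of Hspb2, which had 0 reads in all organoids, depends on the prior count of the fit.

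Among the heat shock factors, Hsf1, the main activator of the heat shock response, had 21.5 CPM in the lowest, 24.3 CPM in the median and 31.9 CPM in the highest organoid library, and 40.7, 40.8 and 38.3 CPM in tumoroids 1, 2 and 3. Every tumoroid lay above every organoid library. The log2 fold change was 0.66 (SE 0.15, adjusted p = 0.0053 from edgeR). Hsf2, a second factor that binds the same elements, also stood higher in every tumoroid. Its level was between 3.90 and 7.30 CPM in organoids with a median of 6.26 CPM, and 9.65, 14.7 and 13.6 CPM in tumoroids, with a log2 fold change of 1.07 (SE 0.22, adjusted p = 0.0030). Hsf4, best known from the lens, was near the detection limit. It ranged from 0.407 to 1.99 CPM in organoids with a median of 0.629 CPM, and was at 1.22, 0.669 and 0.721 CPM in tumoroids, without a difference that passed (log2 fold change −0.03, SE 0.56, adjusted p = 0.98).

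Of the HSP90 family, Hsp90ab1 was higher in tumoroids, at 3530, 2856 and 3192 CPM against 1765 to 2591 CPM in organoids, and the groups did not overlap. Its log2 fold change was 0.63 (SE 0.19, adjusted p = 0.020), and it was between 0.56 and 0.61 (adjusted p = 0.051 to 0.057) without tumoroid 1, without replicate 2 of either organoid group or without T-cM-titled replicate 3. Hsp90aa1, the stress-responsive cytosolic HSP90, had 449, 676 and 538 CPM in tumoroids and 306 to 598 CPM in organoids, and its log2 fold change of 0.35 did not pass (SE 0.26, adjusted p = 0.28). Hsp90b1, the ER form known as GRP94, was lower (log2 fold change −0.63, SE 0.20, adjusted p = 0.025), with 357, 366 and 447 CPM in tumoroids and 433 to 738 CPM in organoids, where tumoroid 3 lay above the lowest organoid library. Without tumoroid 1, tumoroid 2 or WT-cM-titled replicate 2 it had −0.57, −0.60 and −0.60 (adjusted p = 0.076, 0.059 and 0.054).

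The inducible HSP70 genes Hspa1b (chr17:34956436-34959238, minus strand, GRCm38) and Hspa1a (chr17:34969190-34972156, minus strand) encode nearly the same protein and are the classical targets of HSF1. Hspa1b was at 22.5, 93.0 and 65.9 CPM in tumoroids and at 3.14 CPM in the lowest, 9.60 CPM in the median and 30.3 CPM in the highest organoid library. Tumoroid 1 was thus within the organoid range, and tumoroids 2 and 3 were above it. The log2 fold change was 2.5 (SE 0.44, adjusted p = 0.0011). Hspa1a had far fewer reads, with 2.72, 4.5 and 5.74 CPM in tumoroids against 0.879 to 6.17 CPM in organoids, and its log2 fold change of 1.01 did not pass (SE 0.40, adjusted p = 0.059). Reads that fit both copies may have been split or dropped in counting, so the division between them is uncertain. Hspa1a held between 4.62% and 23.7% of the reads of the pair.

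The promoters of this pair are shown because both carry the same heat shock element, and those of Hspb1 and Hsph1 because they hold other copies of it. In the RefSeq promoters of GRCm38.p6, of which 49 of the 64 members have one, the 250 bases before the start of Hspa1b and Hspa1a differed at 3 positions (98.8% identical). The stretches below are written 5′ to 3′ on the strand of the gene, and capitals mark the 2-unit heat shock element (GAANNTTC or TTCNNGAA, which read the same on both strands).
Hspa1b, chr17:34959305-34959372, minus strand: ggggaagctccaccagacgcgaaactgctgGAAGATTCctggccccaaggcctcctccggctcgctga
Hspa1a, chr17:34972223-34972290, minus strand: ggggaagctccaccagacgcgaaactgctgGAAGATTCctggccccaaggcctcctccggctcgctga
Hspb1, chr5:135887792-135887859, plus strand: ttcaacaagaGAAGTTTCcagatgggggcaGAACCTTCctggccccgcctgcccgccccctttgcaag
Hsph1, chr5:149636337-149636399, minus strand: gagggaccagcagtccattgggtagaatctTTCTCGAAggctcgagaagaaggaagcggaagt
This 2-unit element was found before the start of 13 of 49 members (26.5%), against 14.5% of all 27025 genes and 12.8% of all 32851 promoters in the table. These were Dnaja1, Dnaja4, Dnajb4, Dnajb6, Dnajc10, Dnajc27, Hspa1a, Hspa1b, Hspb1, Hspb6, Hspd1, Hspe1 and Hsph1. Of these 13 genes, Dnaja4, Dnajb6, Dnajc27, Hspa1b and Hsph1 passed as higher in tumoroids, Hspb1 was near 0 in organoids, and the others did not pass. A match describes letters in this window and is no evidence that a factor binds there.

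Hspa2, an HSP70 gene best known from the testis, was higher in every tumoroid, at 9.83, 14.1 and 19.5 CPM against 0.608, 1.21 and 1.69 CPM in the lowest, median and highest organoid library. Its log2 fold change of 3.60 (SE 0.31, adjusted p = 1.6e-05) was the largest of the HSP70 genes. Hspa8 did not pass, with 2341, 1843 and 2496 CPM in tumoroids and 2076 to 2644 CPM in organoids (log2 fold change −0.06, SE 0.18, adjusted p = 0.81), although it passed as higher with limma on log2(TPM + 1) (0.46, adjusted p = 0.045).

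In the HSP110 family, whose members release nucleotide from HSP70, 2 of 3 members passed as higher, where 29.6% of all genes did. Hspa4l had 58.7, 208 and 103 CPM in tumoroids and between 32.0 and 88.0 CPM in organoids with a median of 54.2 CPM (log2 fold change 1.18, SE 0.32, adjusted p = 0.013). Hsph1 had 84.7, 246 and 125 CPM in tumoroids and 41.2 to 108 CPM in organoids (log2 fold change 1.01, SE 0.36, adjusted p = 0.041). In both genes tumoroid 2 stood apart and tumoroid 1 lay within the organoid range. Without tumoroid 2, the log2 fold change was 0.57 for Hspa4l (adjusted p = 0.087) and 0.46 for Hsph1 (adjusted p = 0.28), and Hsph1 also missed the threshold without replicate 2 or 3 of either organoid group (log2 fold change 0.86 to 0.99, adjusted p = 0.069 to 0.082). Hspa4 itself did not pass, with a log2 fold change of −0.37 (SE 0.17, adjusted p = 0.097).

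The small heat shock proteins Hspb1, Hspb8 and Hspb2 had the largest fitted differences of all members, from very low levels. Hspb1, known as HSP25 in the mouse, had 6 reads over the 6 organoid libraries and 1211 reads over the 3 tumoroids. It was at 9.56, 10.4 and 24.7 CPM in tumoroids and at no more than 0.136 CPM in any organoid library. The ratio of the pooled levels was 281-fold, with a 95% counting interval from 129 to 767. Hspb8, which works with the exchange factor Bag3 in chaperone-assisted autophagy, had 6 reads in organoids and 859 in tumoroids, at 6.34, 11.2 and 14.4 CPM in tumoroids and at most 0.106 CPM in organoids. Its ratio was 199-fold (95% counting interval 91.1 to 544). Both intervals count pooled reads only and leave out the spread between cultures, and they are no test of a difference. Hspb2, best known from muscle, had 0 reads in all 6 organoid libraries and 2, 16 and 3 reads in tumoroids 1, 2 and 3. Against a floor of 3 reads over the 6 organoid libraries its ratio was 9.74-fold, and 3.54-fold without tumoroid 2, which held most of these reads. These ratios leave out the counting error of the few tumoroid reads and are no lower bounds. Hspb2 also reached the TPM minimum in tumoroids only.

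The other 2 genes of this class had low levels in every library. Hspb11, also named Ift25 and a part of the ciliary transport machinery, was at 8.43, 6.02 and 7.63 CPM in tumoroids and between 2.71 and 6.20 CPM in organoids (log2 fold change 0.82, SE 0.24, adjusted p = 0.017), and without tumoroid 1 the value was 0.71 (adjusted p = 0.058). Hspb6 had 6.34, 3.79 and 5.46 CPM in tumoroids and 3.34 to 5.18 CPM in organoids, and did not pass (log2 fold change 0.19, SE 0.25, adjusted p = 0.54). The class as a whole summed to 8.94 to 11.3 TPM in organoids and 63.8, 78.9 and 134 TPM in tumoroids 1, 2 and 3.

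Small heat shock proteins are also made by muscle and stromal cells, and some markers of other cells differed between the cultures too. The 4 muscle markers summed to between 0.20 and 1.31 TPM in organoids and to 7.77, 4.28 and 92.7 TPM in tumoroids, most of it Acta2. The 6 leukocyte markers summed to between 1.02 and 2.80 TPM in organoids and to 13.8, 32.3 and 61.6 TPM in tumoroids, while Cd3e had 0 reads in all libraries. The 4 endothelial markers summed to at most 0.73 TPM in organoids and to 0.29, 0.35 and 3.06 TPM in tumoroids, and Kdr had 0 reads in all libraries. The 8 fibroblast markers stayed at or below 1.5 TPM in sum, and Col3a1 and Lum had 0 reads in all libraries. Hspb1 and Hspb8 were highest in tumoroid 3, where Acta2 was highest as well. The part of such cells in the small heat shock protein reads was not tested. Without tumoroid 3, the log2 fold change was 7.33 for Hspb1 and 7.15 for Hspb8.

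**Figure D2:**
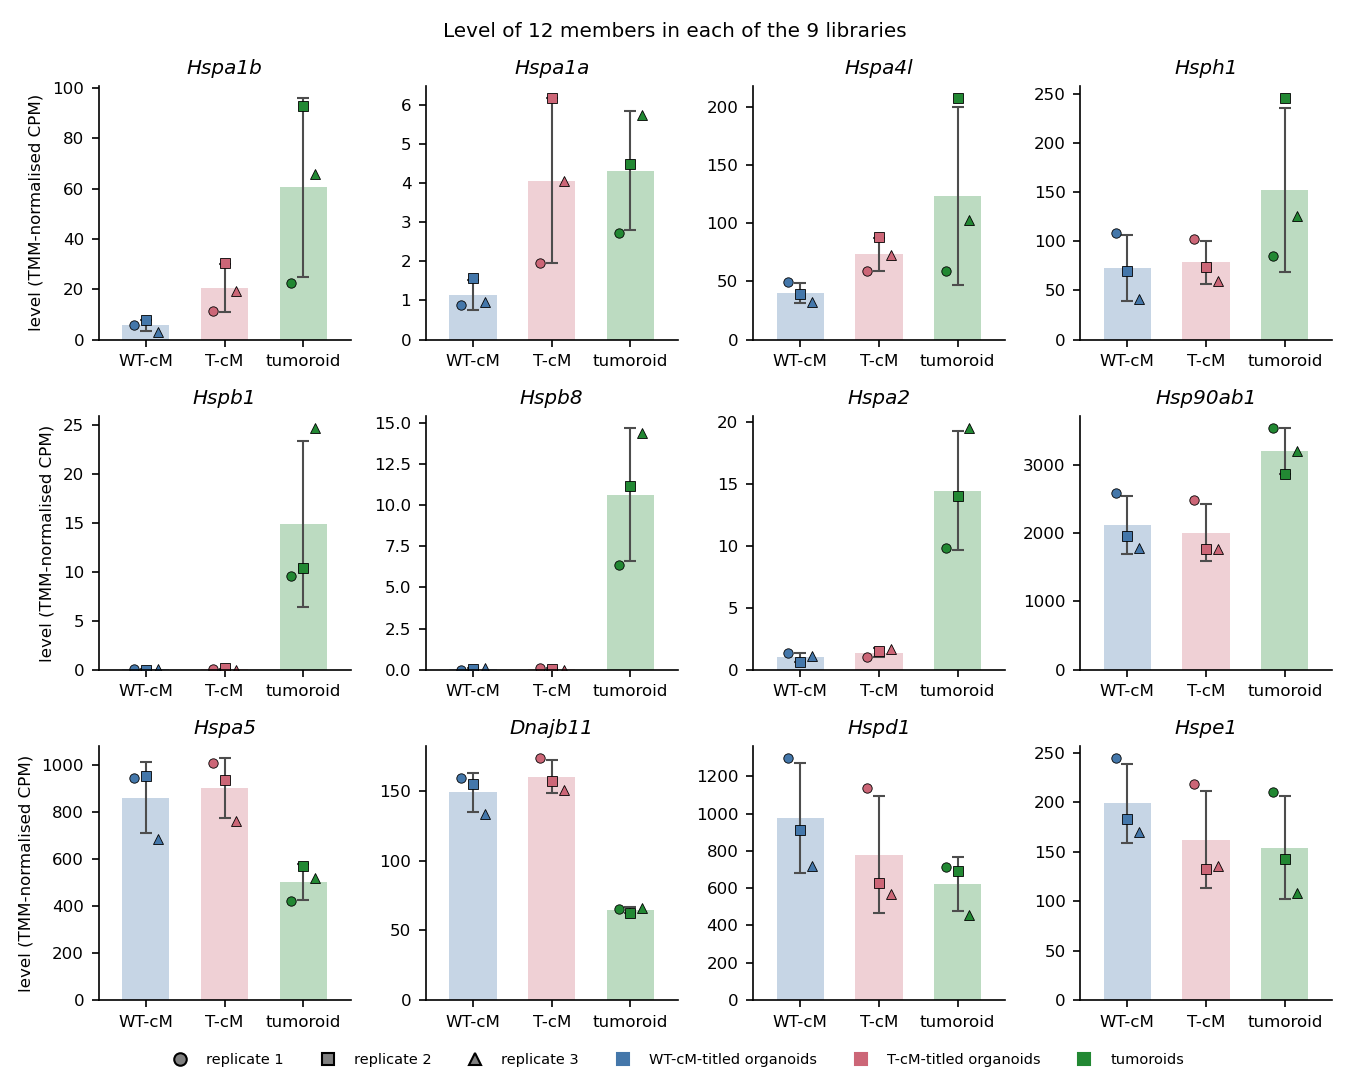
Level in TMM-normalised CPM (linear axes from 0) of 12 members in the 9 libraries. Bars are group means, error bars the SD over 3 replicates, and symbols the replicates. Hspb1 and Hspb8 are near 0 in all 6 organoid libraries, Dnajb11 is between 62.4 and 66.4 CPM in tumoroids against 133 to 173 CPM in organoids, and tumoroid 2 (green square) stands above the other tumoroids for Hspa1b, Hspa4l and Hsph1.

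Among the 10 cytosolic DnaJ proteins of the A and B classes, 3 were higher in tumoroids and 0 lower by edgeR, and the higher count is near the share over all genes (29.6%). Dnaja4 rose to 2.81, 8.07 and 12.1 CPM from 1.41 to 3.04 CPM in organoids (log2 fold change 1.85, SE 0.40, adjusted p = 0.0038), and tumoroid 1 was within the organoid range. Dnajb5 had 5.66, 8.81 and 11.1 CPM in tumoroids and 4.13 to 6.45 CPM in organoids (log2 fold change 0.84, SE 0.25, adjusted p = 0.020), with 0.80 and 0.58 (adjusted p = 0.051 and 0.097) without tumoroid 2 or 3. Dnajb6, an inhibitor of protein aggregation, had 67.9, 113 and 94.7 CPM against 65.8 to 73.6 CPM (log2 fold change 0.42, SE 0.15, adjusted p = 0.037). Dnajb6 lost its call without any single organoid library (adjusted p = 0.059 to 0.078) and without tumoroid 2 (0.23, adjusted p = 0.22) or 3 (0.39, adjusted p = 0.10). Dnajb1, the inducible HSP40 that works with HSP70, did not pass (log2 fold change 0.18, SE 0.13, adjusted p = 0.28), at 55.9, 50.9 and 63.4 CPM in tumoroids and 40.5 to 56.4 CPM in organoids. Dnaja1 was at 116, 152 and 146 CPM in tumoroids and 127 to 195 CPM in organoids and did not pass either (log2 fold change −0.29, SE 0.14, adjusted p = 0.12).

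Of the other DnaJ genes, Dnajc27, a small GTPase with a J domain, and Dnajc12, a co-chaperone of the aromatic amino acid hydroxylases, were higher in all 3 tumoroids. Dnajc27 had 6.80, 7.44 and 7.14 CPM in tumoroids and 1.16, 1.67 and 2.09 CPM in the lowest, median and highest organoid library (log2 fold change 2.09, SE 0.26, adjusted p = 1.3e-04). Dnajc12 had 7.70, 8.63 and 9.00 CPM against 2.07 to 3.91 CPM with a median of 3.39 CPM (log2 fold change 1.47, SE 0.23, adjusted p = 5.5e-04). Dnajc13, a J protein of endosomes, was lower throughout, at 66.9, 103 and 88.7 CPM against 149 to 226 CPM with a median of 196 CPM (log2 fold change −1.15, SE 0.17, adjusted p = 4.0e-04). Dnajc22 was lower as well, at 95.4, 81.3 and 93.9 CPM against 138 to 150 CPM with a median of 143 CPM (log2 fold change −0.67, SE 0.11, adjusted p = 5.8e-04). Dnajc7, which binds both HSP70 and HSP90, fell below the organoid range in all 3 tumoroids (log2 fold change −0.59, SE 0.12, adjusted p = 0.0020). None of the 6 DnaJ genes of nucleus and ribosome passed in edgeR, where 50.4% of all genes did.

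Several ER members were lower in tumoroids. Both HSP70 genes of the ER passed as lower, where 20.8% of all genes did. Hspa5, which encodes BiP, the main HSP70 of the ER, was at 421, 572 and 519 CPM in tumoroids and at 687 to 1009 CPM in organoids, without overlap (log2 fold change −0.81, SE 0.18, adjusted p = 0.0046). Hspa13 was at 27.6, 38.9 and 38.7 CPM against 35.2 to 69.8 CPM (log2 fold change −0.68, SE 0.22, adjusted p = 0.025), with −0.53 without tumoroid 1 (adjusted p = 0.095) and an adjusted p of 0.056 without replicate 2 of either organoid group. Of 9 ER DnaJ genes, 4 were lower and 2 higher by edgeR, where 20.8% of all genes were lower and 29.6% higher. Dnajb11, a partner of BiP on unfolded clients, had 65.5, 62.4 and 66.4 CPM in tumoroids and 133, 156 and 173 CPM in the lowest, median and highest organoid library (log2 fold change −1.26, SE 0.12, adjusted p = 2.2e-05). The 3 tumoroids thus lay close together and well below the organoids.

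Dnajc3, also called p58IPK, an inhibitor of eIF2α kinases, was at 67.4, 64.7 and 91.1 CPM against 131 to 177 CPM with a median of 163 CPM (log2 fold change −1.10, SE 0.16, adjusted p = 3.3e-04). Dnajb9, a repressor of the sensor IRE1, was at 19.2, 27.4 and 28.1 CPM against 33.0 to 67.2 CPM (log2 fold change −0.96, SE 0.24, adjusted p = 0.0077). Dnajb12, anchored in the ER membrane, was at 54.5, 56.7 and 57.5 CPM against 81.1 to 99.4 CPM with a median of 82.7 CPM (log2 fold change −0.64, SE 0.12, adjusted p = 0.0015). Each of these 3 genes was lower in every tumoroid than in any organoid library. The exceptions were Dnajc18, at 20.2, 22.4 and 29.7 CPM against 4.47 to 7.26 CPM with a median of 5.48 CPM (log2 fold change 2.11, SE 0.19, adjusted p = 1.9e-05), and Dnajc1, at 26.4, 32.6 and 31.1 CPM against 18 to 21.5 CPM (log2 fold change 0.60, SE 0.14, adjusted p = 0.0048).

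Among 23 tested genes of ER folding and the unfolded protein response that are no members, 12 were lower and 0 higher by edgeR, with a median log2 fold change of −0.54, where 20.8% of all genes were lower and the median over all genes was 0.16. P4hb, a protein disulphide isomerase, had a log2 fold change of −2.26 (SE 0.19), Edem1, which directs misfolded glycoproteins to degradation, of −1.34 (SE 0.16), the ubiquitin ligase Syvn1 of −1.11 (SE 0.13) and the translocon subunit Sec61b of −0.75 (SE 0.11). The summed level of this list was between 6467 and 7343 TPM in organoids and between 4318 and 5048 TPM in tumoroids. P4hb alone held 2984 to 3685 TPM of it in organoids and 950 to 1032 TPM in tumoroids. The difference between the sums thus mainly follows this gene and does not describe the list as a whole. Epithelial markers did not stay level either, since Vil1, a brush border gene, was at 821 to 1102 TPM in organoids and 292 to 340 TPM in tumoroids, and 4 of the 8 epithelial markers were lower and 1 higher by edgeR. The part of the mix of epithelial cell types in these values was not tested.

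The promoters of 3 lower members are shown because they hold the ER stress element, the site through which the unfolded protein response acts on ER chaperone genes. Capitals mark the element, which is CCAAT followed after 9 bases by CCACG, or its reverse complement, CGTGG followed after 9 bases by ATTGG.
Hspa5, chr2:34771995-34772073, plus strand: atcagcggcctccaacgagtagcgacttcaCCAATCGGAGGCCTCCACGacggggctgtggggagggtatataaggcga
Hsp90b1, chr10:86705503-86705581, minus strand: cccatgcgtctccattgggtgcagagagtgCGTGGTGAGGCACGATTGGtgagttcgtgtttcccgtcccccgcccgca
Dnajc3, chr14:118937797-118937875, plus strand: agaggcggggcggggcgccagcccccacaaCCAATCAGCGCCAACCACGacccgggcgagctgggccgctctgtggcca
Of 49 members with a promoter, these 3 (6.12%) held the element, against 0.13% of all genes with a promoter in the table. All 3 passed as lower in tumoroids by edgeR, where 20.8% of all genes did. With limma on log2(TPM + 1), Hspa5 and Hsp90b1 did not pass. Dnajb11 and Dnajb9 passed as lower without being among them.

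In mitochondria, Hspa9 (mortalin, the mitochondrial HSP70), Hspd1 (HSP60) and Hspe1 (HSP10) did not pass between tumoroids and organoids. Hspa9 was at 1082, 1368 and 646 CPM in tumoroids, spread around the 868 to 966 CPM of organoids. Hspd1 was at 715, 694 and 455 CPM against 570 to 1295 CPM (log2 fold change −0.49, SE 0.29, adjusted p = 0.19), and Hspe1 at 211, 143 and 108 CPM against 133 to 244 CPM (log2 fold change −0.22, SE 0.25, adjusted p = 0.48). Of 5 mitochondrial DnaJ genes, 3 were lower and 0 higher by edgeR, where 20.8% of all genes were lower. They were Dnajc19, a part of the inner membrane import motor (log2 fold change −0.90, SE 0.22, adjusted p = 0.0074), Dnajc11 (−0.50, SE 0.16, adjusted p = 0.024, and −0.41 with 0.074 without tumoroid 3) and Dnajc30 (−0.44, SE 0.12, adjusted p = 0.012). Of 8 other genes of mitochondrial folding and proteolysis, Htra2 was higher (log2 fold change 1.04, SE 0.19) and the import receptor Tomm70a (−0.83, SE 0.14), Afg3l2 (−0.79, SE 0.14) and Yme1l1 (−0.60, SE 0.14) were lower. Mitochondrially encoded genes took 0.701% and 0.817% of the reads in tumoroids 1 and 3, 2.17% in tumoroid 2 and 1.33% to 1.80% in organoids.

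Of 10 nucleotide exchange factors of HSP70, which are no members, 3 were higher and 4 lower, and of 17 HSP90 co-chaperones 4 were higher and 2 lower, where 29.6% of all genes were higher and 20.8% lower. These counts are no result about either list. Bag2 (log2 fold change 1.76, SE 0.35), Sil1 (0.99, SE 0.14) and Grpel2 (0.80, SE 0.11) were higher, and Bag4 (−0.80, SE 0.14) and Bag3 (−1.17, SE 0.24) were among the lower. Bag3, itself an HSF1 target, was thus lower where Hspb8, its partner, was higher. Of the co-chaperones, Sugt1 (log2 fold change 0.39, SE 0.10) was among the higher, and the lower were Ppp5c (−0.78, SE 0.11) and Ahsa2 (−0.62, SE 0.17). Of the 9 subunits of the cytosolic chaperonin CCT, Cct4 (0.38, SE 0.14, and 0.28 with an adjusted p of 0.14 without tumoroid 1) and Cct6b (1.74, SE 0.46) passed as higher, and of 6 prefoldin subunits Pfdn2 did (0.52, SE 0.13), with 0 lower in either complex by edgeR. Cct6b had 1 to 4 reads in each organoid library and reached the TPM minimum in tumoroids 2 and 3 only, so its call is no support for a difference. With the organoid libraries of a number summed, Sugt1, Ahsa2 and Cct4 no longer passed (adjusted p = 0.059, 0.05 and 0.16). Immediate early genes, which respond to handling of cells as well as to growth factors, passed as higher in 8 of 10 tested and summed to between 337 and 454 TPM in organoids and between 1261 and 2143 TPM in tumoroids. The part of handling in the levels of the inducible chaperones was not tested.

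Values of this comparison depend on how libraries are scaled. With limma on log2(TPM + 1), the median of all genes moved from 0.16 to 0.52, and 32 members passed as higher (50%, against 47.4% of all genes) and 3 as lower (4.69%, against 11.96%), namely Dnajb11, Dnajc13 and Dnajc3. On that scale Hspa5 (log2 fold change −0.28, adjusted p = 0.25) and Hsp90b1 (−0.09, adjusted p = 0.74) no longer passed, the non-member ER list held 2 higher and 4 lower genes, and Dnajc11 and Dnajc30 changed sign. The 14 members that passed on that scale alone, all as higher, were Dnaja3, Dnajb1 (0.69, adjusted p = 0.0042), Dnajc5, Dnajc8, Dnajc9, Dnajc14, Dnajc17, Dnajc24, Dnajc28, Hsp90aa1 (0.90, adjusted p = 0.025), Hspa1a, Hspa8, Hspa9 (0.64, adjusted p = 0.032) and Hspb6. The plot of both scales shows that 58 of the 64 members had a larger log2 fold change with TPM. Hspa2 and Hspa1b passed as higher on both scales, as did Hsf1, Hsf2 and Hsp90ab1.

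**Figure D3:**
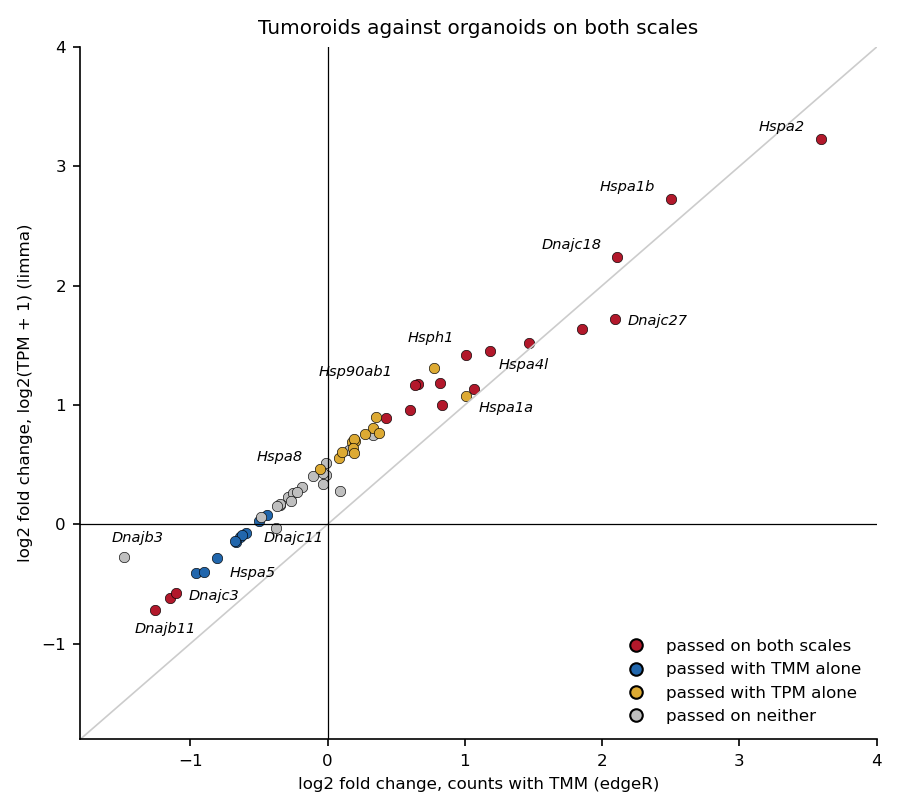
Log2 fold change of tumoroids over organoids from counts with TMM (horizontal axis, edgeR) and from log2(TPM + 1) (vertical axis, limma), 1 point per member. The diagonal marks equal values. Of the 64 members 61 lie within the axes (Hspb1, Hspb2 and Hspb8 lie beyond them), 21 passed on both scales, 10 with TMM alone and 14 with TPM alone.

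The second comparison asked what conditioned medium from tumoroids does to WT organoids. It used the 6 organoid libraries in a paired fit, in which replicate number entered as a block. Hspa1b, Hspa1a and Hspa4l were higher in T-cM-titled organoids, and the mitochondrial chaperonin genes Hspd1 and Hspe1 were lower by a small amount. At an adjusted p under 0.05, 7 members were higher (10.9%, against 5.03% of all genes) and 3 lower (4.69%, against 5.05%), which are 15.6% of members against 10.1% of all genes. With the fold threshold, Hspa1b and Hspa1a were higher (3.12% of members, against 0.673% of all genes) and 0 members lower (0.432% of all genes), with 1.1% of all genes in both directions. At an unadjusted p under 0.05 there were 17 members (26.6%, against 22.0% of all genes). The direction was the same in all 3 pairs for 34 of 64 members (53.1%, against 41.2% of all genes), and the groups did not overlap for 8 higher members (12.5%, against 5.12% of all genes) and 2 lower members (3.12%, against 5.28%), which are 15.6% of members against 10.4% of all genes.

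**Figure D4:**
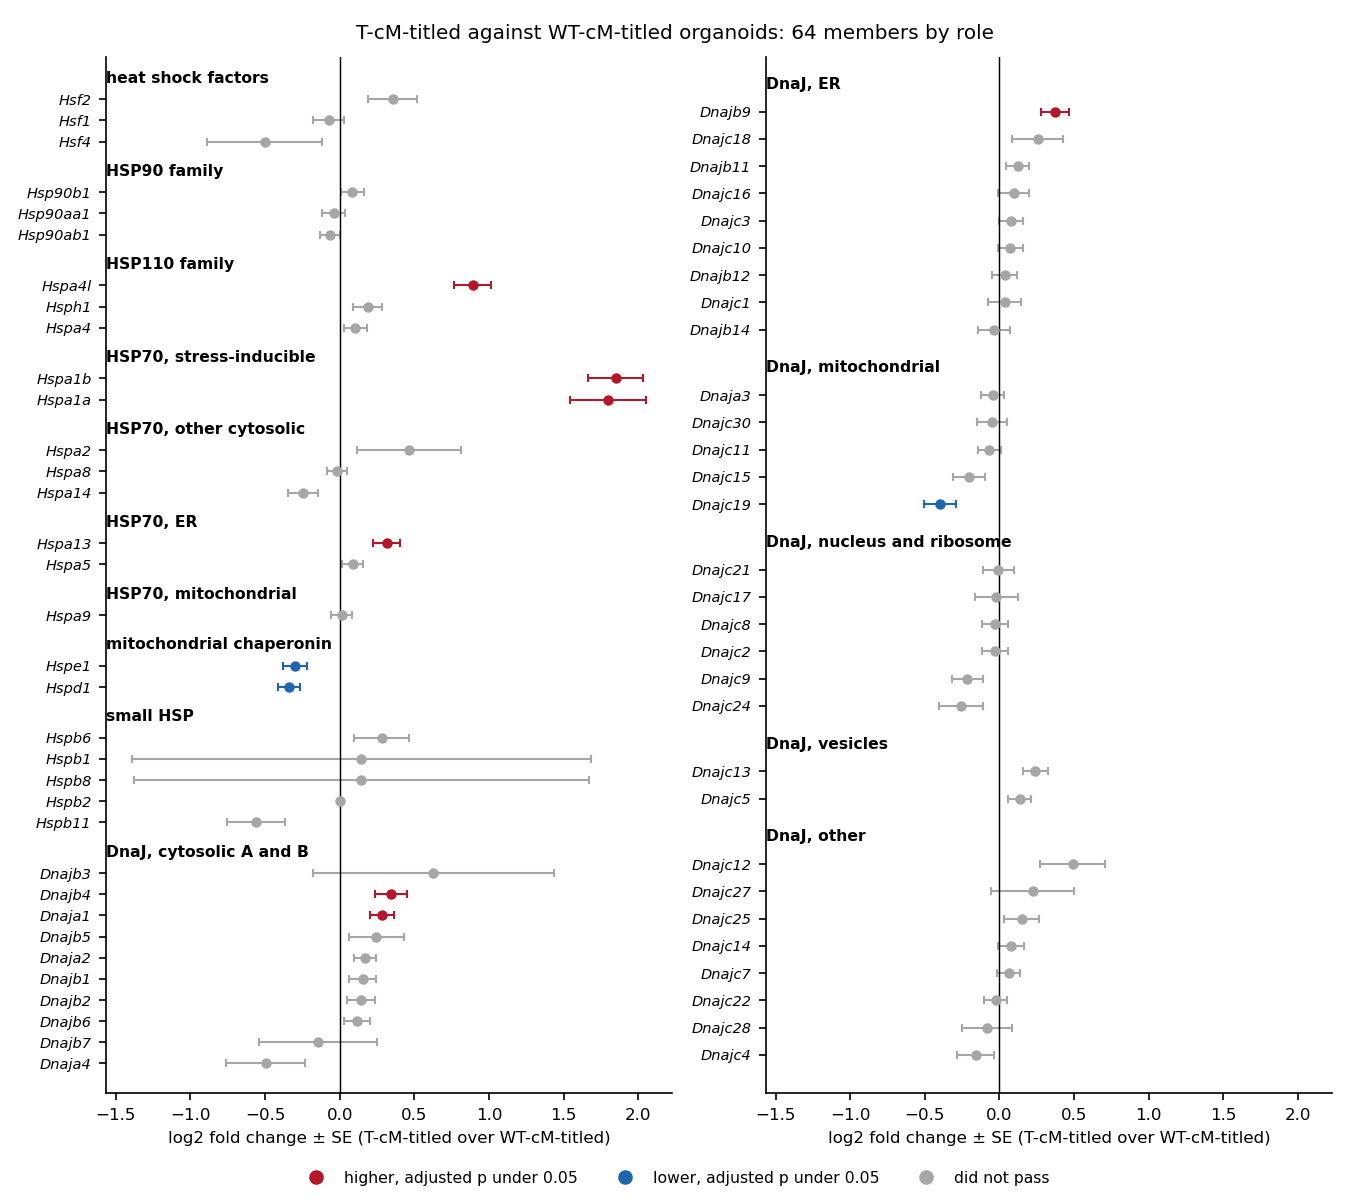
Log2 fold change of T-cM-titled over WT-cM-titled organoids for the 64 members, grouped by role, with its standard error from the edgeR fit over 6 libraries with a replicate block. Of the points, 7 in red passed as higher, 3 in blue passed as lower and the grey ones did not pass. Hspb2 had 0 reads in all 6 libraries and has no standard error.

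Hspa1b was at 11.4, 30.3 and 19.4 CPM in T-cM-titled libraries 1, 2 and 3 and at 5.99, 7.78 and 3.14 CPM in the WT-cM-titled libraries of the same numbers, which corresponds to 216, 447 and 344 reads against 109, 128 and 71. The groups did not overlap. The log2 fold change was 1.85 (SE 0.19, adjusted p = 4.9e-08 from edgeR with the block). Hspa1a followed it at 1.96, 6.17 and 4.06 CPM against 0.879, 1.58 and 0.974 CPM, on 37, 91 and 72 reads against 16, 26 and 22 (log2 fold change 1.80, SE 0.26, adjusted p = 1.5e-05). Because reads of these copies may be shared, both were also summed, which gave 1.83 (SE 0.17). Pair 1 moved least for both copies, as the plot of single pairs shows.

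Hspa4l, the HSP110 gene, was at 59.2, 88.0 and 73.1 CPM against 49.2, 38.8 and 32.0 CPM, again without overlap (log2 fold change 0.89, SE 0.12, adjusted p = 1.0e-05). Hsph1 did not follow it, at 102, 73.6 and 59.9 CPM against 108, 69.2 and 41.2 CPM (log2 fold change 0.19, SE 0.10, adjusted p = 0.27), and neither did Hspa4 (0.11, SE 0.08, adjusted p = 0.47). Dnajb1 and the abundant cytosolic genes Hspa8, Hsp90aa1 and Hsp90ab1 did not pass. Dnajb1 had a log2 fold change of 0.16 (SE 0.09, adjusted p = 0.33), Hspa8 of −0.02 (SE 0.07, adjusted p = 0.94), Hsp90aa1 of −0.04 (SE 0.07, adjusted p = 0.82) and Hsp90ab1 of −0.06 (SE 0.07, adjusted p = 0.68). Hspb1 had 3 reads in each organoid group over its 3 libraries, and Hspb8 likewise, so a difference in them was not detectable at this depth.

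The heat shock factors did not pass. Hsf1 was at 27.9, 21.5 and 23.8 CPM in T-cM-titled and 31.9, 21.5 and 24.8 CPM in WT-cM-titled organoids (log2 fold change −0.07, SE 0.10, adjusted p = 0.76). Hsf2 was at 7.30, 6.92 and 6.03 CPM against 6.49, 5.84 and 3.90 CPM (log2 fold change 0.35, SE 0.16, adjusted p = 0.20), and Hsf4 at 0.529, 0.407 and 1.24 CPM against 0.495, 0.730 and 1.99 CPM (log2 fold change −0.50, SE 0.39, adjusted p = 0.50). Of the exchange factors, Bag3 was higher (log2 fold change 0.47, SE 0.09, adjusted p = 0.0012), as was Hyou1, the HSP110-like factor of the ER (0.25, SE 0.08, adjusted p = 0.042).

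Smaller increases were seen in 4 further members. Dnaja1, a cytosolic J protein, was at 195, 187 and 171 CPM against 168, 166 and 127 CPM (log2 fold change 0.28, SE 0.08, adjusted p = 0.021). Dnajb4, another cytosolic J protein, was at 21.3, 28.4 and 24.5 CPM against 17.8, 22.4 and 18.6 CPM (log2 fold change 0.35, SE 0.11, adjusted p = 0.035). In the ER, Dnajb9 was at 39.0, 67.2 and 58.2 CPM against 33.0, 55.9 and 39.5 CPM (log2 fold change 0.37, SE 0.10, adjusted p = 0.010). Hspa13 was at 68.1, 69.8 and 47.9 CPM against 57.0, 60.0 and 35.2 CPM (log2 fold change 0.32, SE 0.09, adjusted p = 0.022). Each was higher in 3 of 3 pairs, and only for Dnaja1 did the groups not overlap among these 4. Hspa5 did not pass (log2 fold change 0.09, SE 0.07, adjusted p = 0.54), and of the 23 non-member ER genes Atf6 (0.35, SE 0.09), Eif2ak3, which encodes PERK (0.34, SE 0.09), and Syvn1 (0.30, SE 0.08) were higher and 0 lower by edgeR. All genes of CCT, prefoldin, the HSP90 co-chaperones and mitochondrial folding missed the threshold in this comparison by edgeR.

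**Figure D5:**
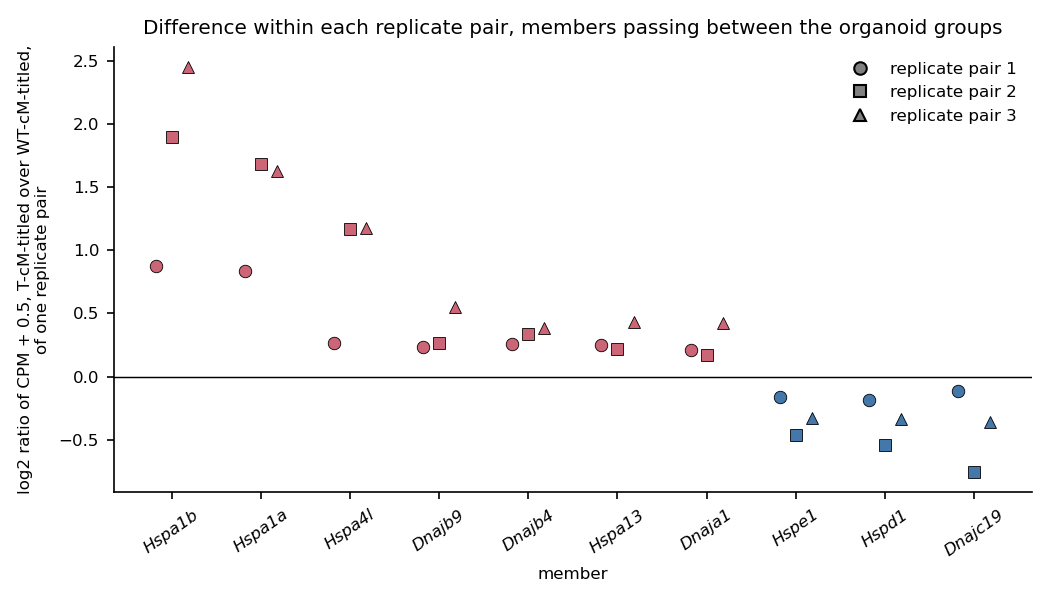
Log2 ratio of CPM + 0.5 in the T-cM-titled over the WT-cM-titled library of each replicate pair (symbols) for the 10 members that passed between the organoid groups. All 3 pairs lie on the same side of 0 for each of these members, and pair 1 lies nearest to 0 for Hspa1b, Hspa1a and Hspa4l.

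The lower members were all mitochondrial. Hspd1 was at 1139, 627 and 570 CPM in T-cM-titled and 1295, 912 and 718 CPM in WT-cM-titled organoids, lower in 3 of 3 pairs (log2 fold change −0.34, SE 0.07, adjusted p = 0.0027). Hspe1, its cofactor, was at 219, 133 and 135 CPM against 244, 183 and 169 CPM (log2 fold change −0.30, SE 0.08, adjusted p = 0.012). The replicates differed more than the media, since both genes were highest in replicate 1 of either group. Dnajc19 was at 40.5, 25.9 and 32.3 CPM against 44.0, 44.0 and 41.6 CPM, without overlap (log2 fold change −0.40, SE 0.11, adjusted p = 0.015). Hspa9 did not pass, with a log2 fold change of 0.01 (SE 0.07, adjusted p = 0.97). Proliferation markers moved in the same direction. By edgeR 11 of 17 were lower and 0 higher, where 5.05% of all genes were lower and 5.03% higher. These markers summed to 1190, 621 and 563 TPM in T-cM-titled and 1397, 779 and 618 TPM in WT-cM-titled libraries 1, 2 and 3. Their part in the chaperonin values was not tested.

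Hspd1 (chr1:55077835-55088243, minus strand) and Hspe1 (chr1:55088132-55091307, plus strand) lie head to head and their annotated ends overlap, and the strand setting of the counting is not given in the sources used here. Their shared promoter is shown because both strands read the same 3-unit heat shock elements (GAA, TTC and GAA, or TTC, GAA and TTC, with 2 bases between neighbouring units, each form being the reverse complement of the other) from it, which lie between RefSeq starts 216 bases apart (another start of Hspd1 lies beyond that of Hspe1). Capitals mark the elements, which overlap each other, and Dnajb6 is given beside them as the only other member with one among the 49.
Hspd1, chr1:55088029-55088101, minus strand: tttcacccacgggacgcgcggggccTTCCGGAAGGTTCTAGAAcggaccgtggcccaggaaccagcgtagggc
Hspe1, chr1:55088034-55088106, plus strand: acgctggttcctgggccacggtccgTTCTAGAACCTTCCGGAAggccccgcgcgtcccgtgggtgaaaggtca
Dnajb6, chr5:29735822-29735894, plus strand: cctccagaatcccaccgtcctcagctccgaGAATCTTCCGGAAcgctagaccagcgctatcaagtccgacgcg
The 3-unit form occurred in 0.514% of all genes with a promoter in the table. Dnajb6 did not pass between the media (log2 fold change 0.12, SE 0.09, adjusted p = 0.48).

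A further 2 members of the 12 with the smallest p narrowly missed the threshold. Dnajc13 was at 190, 226 and 203 CPM against 177, 205 and 149 CPM (log2 fold change 0.24, SE 0.08, adjusted p = 0.061). Hspb11 was at 3.86, 2.71 and 3.61 CPM against 3.96, 5.17 and 6.20 CPM, without overlap (log2 fold change −0.56, SE 0.20, adjusted p = 0.068).

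The calls between the media, over all genes as over the members, rest on the pairing and on replicate 2, and in part on replicate 3. Without the replicate block 0 members and 0 of all genes passed in edgeR, with 3 members (4.69%) and 5.58% of all genes at an unadjusted p under 0.05, and the adjusted p was 0.69 for Hspa1b (log2 fold change 1.87, SE 0.42), Hspa1a (1.84, SE 0.46) and Hspa4l (0.89, SE 0.20). Without replicate 2, 0 members and 1 of all genes passed, with 10 members (15.6%) and 9.61% of all genes at an unadjusted p under 0.05, a log2 fold change of 1.77 and an adjusted p of 0.25 for Hspa1b. Without replicate 3, and likewise with limma voom, Hspa1b, Hspa1a, Hspa4l and Hspd1 still passed, whereas Dnaja1, Dnajb4, Dnajb9, Hspa13, Dnajc19 and Hspe1 did not (adjusted p = 0.062 to 0.38 without replicate 3 and 0.058 to 0.096 with voom). With voom their log2 fold changes were 0.28, 0.35, 0.37, 0.31, −0.38 and −0.30 in this order, and without replicate 3 they were 0.19, 0.31, 0.26, 0.24, −0.43 and −0.30. With DESeq2, Hspa1b, Hspa1a, Hspd1, Hspe1, Dnaja1 and Dnajb9 passed. Hspa4l did not pass with DESeq2 (log2 fold change 0.89, SE 0.31, adjusted p = 0.056). By limma on log2(TPM + 1) 0 members and 0 of all genes passed, with 13 members (20.3%) and 16.6% of all genes at an unadjusted p under 0.05, and the adjusted p of Hspa1b was 0.28.

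Both comparisons use the organoid libraries, so their values are not independent and are set side by side only. Hspa1b, Hspa4l, Dnajb9, Hspa13 and Dnajc19 passed in both. Hspa1b and Hspa4l were higher in T-cM-titled organoids and in tumoroids, and Dnajc19 was lower in both. Dnajb9 and Hspa13 were higher in T-cM-titled organoids and lower in tumoroids. With a single organoid group as the reference, 25 members (39.1%) passed against the T-cM-titled organoids (44.5% of all genes) and likewise 25 against the WT-cM-titled organoids (41.9% of all genes). Against the T-cM-titled organoids alone, Hspa1b in tumoroids had a log2 fold change of 1.57 (SE 0.53, adjusted p = 0.037), Hspa4l of 0.75 (SE 0.39, adjusted p = 0.15) and Hspa1a of 0.09 (SE 0.47, adjusted p = 0.89). Against the WT-cM-titled organoids alone, the values were 3.43 for Hspa1b (SE 0.58, adjusted p = 0.0012), 1.62 for Hspa4l (SE 0.40, adjusted p = 0.0090) and 1.92 for Hspa1a (SE 0.49, adjusted p = 0.011). With either reference alone Hsph1 did not pass (adjusted p = 0.10 and 0.075), and Hspa2 passed with both. In all, 28 members passed in neither comparison by edgeR with TMM.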

How the data were processed

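RNA-sequencing libraries of 9 cultures were aligned by the authors to mm10 with STAR, per the labels, and the authors deposited raw counts per gene and TPM values. The counter, its strand setting and the gene lengths behind TPM are not given in the sources used here. Counts were fitted with edgeR 4.0.16 (quasi-likelihood F test, TMM factors, R 4.3.3) over the 16208 genes that reached 1 TPM in some library, with Benjamini-Hochberg adjustment. The organoid comparison used the replicate number as a block. Deviations of same-numbered organoid libraries from their group means correlated at r = 0.688, 0.497 and 0.700 in replicates 1, 2 and 3, so the numbers pair these libraries. The tumoroid comparison used all 9 libraries without a block. Alternatives were DESeq2 1.42.0, limma 3.58.1 (voom, and log2 of TPM + 1), RLE factors, the newer quasi-likelihood method, no TPM filter, the block added or removed, a single organoid group as reference, the organoid libraries of a number summed, each library left out and, added after seeing the data, near-identical copies summed. The scripts were tested on simulated data. Positions are from Gencode M21 and promoters from RefSeq, both on GRCm38. Members and lists were chosen with earlier results of these data known. Described in full were the heat shock factors and the 12 members with the smallest p in each comparison. Other members have values where their role is described, and each pathway list names at most the 4 genes with the smallest p. Bag3 in tumoroids was added after its value was seen.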

Additional observations from a re-analysis of the deposited data

How the results depend on the processing

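Between the media, the members passing as higher and lower were 7 and 3. DESeq2 gave 4 higher, voom 3 higher and 1 lower, and limma on log2(TPM + 1) 0 and 0, also 0 with the fold threshold. Without the replicate block, which the pairing of the libraries calls for, 0 passed in either direction, and 0 with the fold threshold. Leaving out each replicate pair gave 0 to 9 higher, 0 to 6 lower and 0 to 3 higher with the fold threshold, the 0 values coming without pair 2. With the near-identical copies summed, 1 member passed the fold threshold, because Hspa1a and Hspa1b then count as 1. Leaving out a pair turned the sign of Hsp90aa1 (−0.11 to 0.01), Hspa8 (−0.07 to 0.03) and Hspa9 (−0.01 to 0.02), none of which passed. Between tumoroids and organoids, log2(TPM + 1) gave 32 higher, 3 lower and 0 lower with the fold threshold. It turned the log2 fold change of Dnaja1 to 0.23, Dnajc11 to 0.03, Dnajc30 to 0.08, Hsf4 to 0.34, Hspa4 to 0.15, Hspa8 to 0.46, Hspd1 to 0.06 and Hspe1 to 0.27. Hsf4 was also at 0.07 with voom, 0.17 with the replicate block and 0.25 against T-cM-titled organoids alone. Leaving out 1 library gave −0.89 to 0.01 for Dnajb4, −0.35 to 0.38 for Hsf4, −0.16 to 0.05 for Hspa8 and −0.09 to 0.42 for Hspa9, and 13 to 18 members higher and 11 to 13 lower. Same-numbered tumoroids and organoids did not deviate together in replicate 3, so their numbers are no pairs, and with the block 20 members were higher (31.2%, against 32.4% of all genes) and 14 lower (21.9%, against 23.1%). Causes of these shifts were not tested. Depth limits Hspb1, Hspb2, Hspb8, Dnajb3 and Hsf4, which had few reads in organoids.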
